A study of Homo sapiens with 8 samples.

Results

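The genes described here are 46 genes of intraflagellar transport (IFT), the BBSome and the ciliary transition zone, out of 20033 protein-coding genes of the GENCODE annotation. They were chosen by name and function, with earlier results of these data known. Of them, 6 encode subunits of the IFT-A complex and 14 encode subunits of the IFT-B complex. A further 11 belong to the Bardet-Biedl syndrome (BBS) group, 14 encode transition-zone proteins, and ARL3 encodes a ciliary GTPase. On the hg38 build, a promoter window was drawn around the transcription start site (TSS) of every annotated transcript, reaching 1000 bp upstream and 500 bp downstream. Genes with a peak in any of their windows are called bound.

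The peaks came from HA ChIP-Seq in U2OS cells, a human osteosarcoma line that over-expressed HA-tagged PHF20 or PHF20L1 from a lentiviral vector and was sorted for GFP before the libraries were made. PHF20 and PHF20L1 are related chromatin proteins with Tudor and PHD finger domains, and they associate with the NSL complex of the histone acetyltransferase MOF. For PHF20 there were 2 ChIP libraries and 1 input library, all with the tag N-3xHA. For PHF20L1 there were 3 ChIP libraries, 1 with the tag N-3xHA and 2 with C-3xHA, and 2 input libraries. Both proteins were over-expressed with a tag, and peaks of the endogenous proteins were not measured. The final list of each protein, 4147 peaks for PHF20 and 723 for PHF20L1, combined its replicates and held positions only. There is therefore no value per library and no spread between replicates, the intervals given below are Wilson 95% intervals that cover counting error only, and an unlisted promoter is one without a call at the thresholds used, which leaves weaker binding possible. Depth per library is unknown from these lists, and expression in U2OS was not analysed here.

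The primary cilium is an antenna-like organelle on the surface of most cell types, built and maintained by IFT trains that move along its microtubules. IFT-B trains carry cargo to the tip with kinesin, IFT-A is needed for the return with dynein and for the entry of membrane proteins, and the BBSome is a coat-like complex that rides on the trains and removes membrane receptors from the cilium. The transition zone is the gate at the ciliary base, and mutations in all of these groups cause ciliopathies such as Bardet-Biedl, Joubert and Meckel syndromes.

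PHF20 peaks were found at 20 of the 46 genes (43.5%, 30.2% to 57.8%), against 4148 of all 20033 protein-coding genes (20.7%). PHF20L1 peaks were found at 2 of 46 (4.35%, 1.2% to 14.5%), against 3.82% of all protein-coding genes. Both of these genes, TMEM231 and TMEM237, also had a PHF20 peak, and both proteins together marked 3.73% of all protein-coding genes. The PHF20 share of the cilium genes was therefore above that of all genes, while the PHF20L1 share was near the background. Because the genes were chosen with earlier results of these data known, the intervals do not serve as a test of this difference. Among genes with a PHF20 peak, 2 of the 20 cilium genes also had a PHF20L1 peak (10.0%, 2.79% to 30.1%), and 747 of all 4148 did (18.0%, 16.9% to 19.2%).

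All 4 functional groups held genes with a PHF20 peak. The share was 2 of 6 in IFT-A (33.3%, 9.68% to 70.0%), 6 of 14 in IFT-B (42.9%, 21.4% to 67.4%), 6 of 11 in the BBS group (54.5%, 28.0% to 78.7%) and 6 of 14 in the transition zone (42.9%, 21.4% to 67.4%). The 4 intervals overlapped, so no order among the groups can be read from these counts. ARL3, which releases lipid-modified cargo inside the cilium, had no peak of either protein. PHF20L1 peaks were in 2 of 14 transition-zone genes (14.3%, 4.01% to 39.9%). None were called in IFT-A (0 of 6 genes, which allows up to 50.0%), in IFT-B (0 of 14, up to 21.4%) or in the BBS group (0 of 11, up to 27.3%). For a count of 0, here and below, the upper share is the one that 3 counts would give and is not a Wilson limit.

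**Figure D1:**
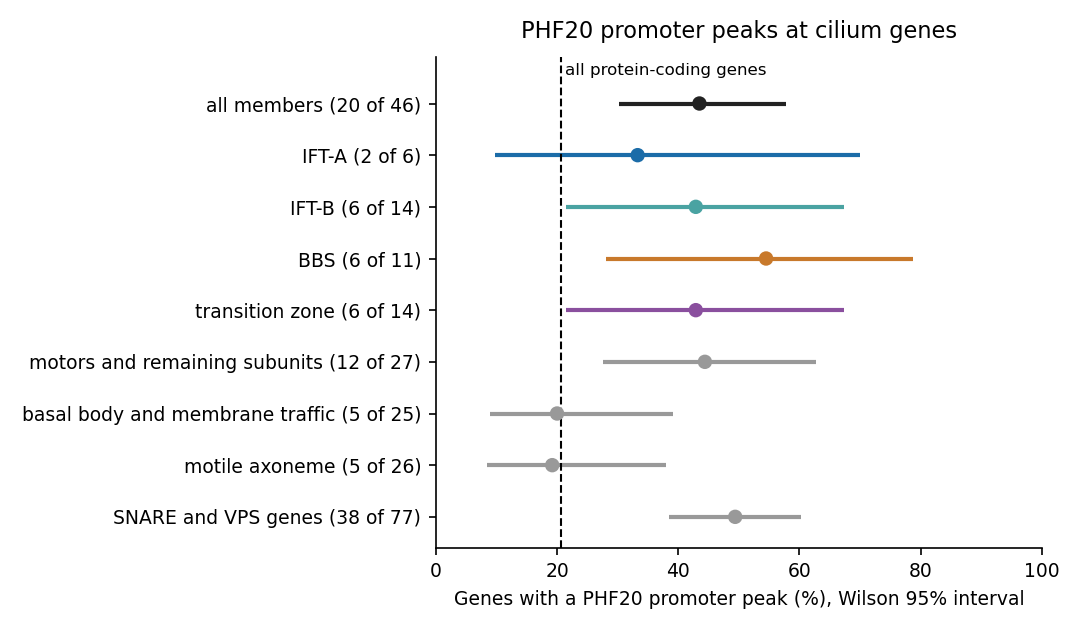
Percent of genes with a PHF20 promoter peak (x axis) in the cilium genes, their 4 groups and other gene lists (rows, with counts). Points are shares, lines are Wilson 95% intervals and the dashed line marks 20.7%, the share of all protein-coding genes. The 46 cilium genes lie at 43.5%, and the intervals of their 4 groups overlap each other.

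The promoter sequences of 7 of the 46 genes held an X-box-like sequence (15.2%, 7.57% to 28.2%), against 322 of all 20033 promoters of the same length (1.61%, 1.44% to 1.79%). The X-box is the inverted repeat recognized by RFX transcription factors, which drive many ciliary genes. It was searched as GTTNCC followed after 0 to 3 bases by its reverse complement, a pattern that reads the same on both strands, in the window of 1501 bp around the MANE Select or canonical TSS of each gene. The 7 sites are shown because they are the sequence feature that sets the cilium promoters furthest from all promoters among the 6 elements searched. Each is printed 5′ to 3′ on the strand of its gene, from hg38, with the X-box-like sequence in capitals and a few flanking bases in lower case.
IFT122, chr3:129440205-129440233, plus strand: catgtacGTTGCCAGGGGTAACgcaggta
BBS2, chr16:56519619-56519647, minus strand: cagcccgtGTTGCCCGGCAACcggtcggc
BBIP1, chr10:110919143-110919171, minus strand: tctcaccGTTACCCGGGGCAACagctgag
ARL6, chr3:97764726-97764755, plus strand: aagctcctGTTGCCAAGGGAACggtgcctg
TCTN1, chr12:110614121-110614149, plus strand: ctgtcgcgGTTGCCGGGCAACgcgctgtc
TCTN3, chr10:95694122-95694150, minus strand: cactgacgGTTGCCAGGCAACggaggcac
ARL3, chr10:102714316-102714344, minus strand: cgcagcaGTTGCCCCTGGTAACgggggag

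These 7 sites lay at most 60 bp from an annotated TSS of their gene, and 6 of the 7 lay within 25 bp of one. By group, 1 was in IFT-A, 0 in IFT-B, 3 in the BBS group, 2 in the transition zone and 1 was that of ARL3. The repeats were separated by 1 base in BBS2, TCTN1 and TCTN3, by 2 bases in ARL6 and by 3 bases in IFT122, BBIP1 and ARL3. With the spacer limited to exactly 2 bases, only the ARL6 promoter would be counted, 1 of 46, against 0.839% of all promoters. Such a site was present in 3 of 20 cilium promoters with a PHF20 peak (15.0%, 5.24% to 36.0%) and in 4 of 26 without one (15.4%, 6.15% to 33.5%), shares that differed by less than their intervals. Only the TCTN1 site lay inside a PHF20 peak. The BBIP1 site was 191 bp and the ARL6 site 174 bp away from the peak at the same promoter.

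A further 5 elements of 8 bases were counted on both strands, each in the same windows. ACTTCCGG, the core of ETS factor sites, was present in 6 of 46 cilium promoters (13.0%, 6.12% to 25.7%), against 8.63% of all promoters and 21.4% of all promoters with a PHF20 peak. The 6 promoters were those of WDR35, IFT22, IFT81, BBS4, BBIP1 and TMEM67, of which 3 had a PHF20 peak (IFT22, BBS4 and BBIP1). These were 3 of the 20 cilium promoters with a PHF20 peak (15.0%, 5.24% to 36.0%), an interval that included the 21.4%. AAGATGGC, the core of YY1 sites, was present in 6 (13.0%, against 8.93% of all promoters), GCATGCGC, which resembles NRF1 sites, in 4 (8.7%, 3.43% to 20.3%, against 7.61%), and TCTCGCGA in 3 (6.52%, 2.24% to 17.5%, against 2.62%). The last 2 of these can overlap their own copies on the other strand, so promoters and not sites were counted. CACGTGAC, an E-box, was in 0 of 46, which allows a share of up to 6.52%, against 5.27% of all promoters. For the other 4 elements the interval in the cilium promoters included the share of all promoters. A match or its absence says only which letters stand in a window.

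Inside the PHF20 peaks themselves, which can lie beyond the canonical window, ACTTCCGG was found in 2 of the 21 peaks at cilium genes (9.52%, 2.65% to 28.9%), against 16.2% of all PHF20 peaks. AAGATGGC was also found in 2, against 9.19%, and CACGTGAC in 1 (4.76%, 0.846% to 22.7%), against 5.98%. GCATGCGC and TCTCGCGA were each in 0 of 21, which allows a share of up to 14.3%, against 4.15% and 3.13% of all PHF20 peaks. The 5 sites of ACTTCCGG, AAGATGGC and CACGTGAC are shown because they coincide with measured peaks. They are printed 5′ to 3′ on the strand of the gene, with the element in capitals in the orientation found there.
IFT22, chr7:101321824-101321853, minus strand: cgccccgcgcgCCGGAAGTggccgagtccc
BBIP1, chr10:110918936-110918965, minus strand: ccctctcctgcCCGGAAGTtgcatttggca
IFT46, chr11:118572395-118572424, minus strand: cgcctcttgccAAGATGGCggccccaagcc
BBS1, chr11:66510646-66510675, plus strand: cgacgcctgcgAAGATGGCcgctgcgtcct
CC2D2A, chr4:15479451-15479480, plus strand: ttgagccagcaGTCACGTGaaggggctgca

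The sites of IFT22, BBIP1 and BBS1 lay within 25 bp of an annotated TSS, at -19, -18 and 2 bp from the nearest one. Those of IFT46 and CC2D2A were 290 bp and 246 bp downstream of the nearest TSS and lay in introns. At BBS4, ACTTCCGG lay 11 bp beyond the end of the PHF20 peak.

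Of the 46 genes, 41 were matched by symbol to a RefSeq promoter entry (GRCh38.p14). The 250 bases before the RefSeq start that lay wholly inside a PHF20 peak and held no annotated UTR were those of ARL6, the GTPase that recruits the BBSome to membranes, and BBS10, a chaperonin-like protein needed for BBSome assembly. They are shown as stretches before a RefSeq start, covered in full by the peaks, with CG dinucleotides in capitals.
ARL6, chr3:97764271-97764520, plus strand: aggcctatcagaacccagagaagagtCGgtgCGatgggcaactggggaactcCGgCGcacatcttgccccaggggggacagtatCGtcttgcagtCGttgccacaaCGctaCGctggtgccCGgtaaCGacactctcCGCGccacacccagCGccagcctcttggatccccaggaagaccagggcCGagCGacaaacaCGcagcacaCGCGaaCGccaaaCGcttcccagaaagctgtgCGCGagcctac
BBS10, chr12:76348416-76348665, minus strand: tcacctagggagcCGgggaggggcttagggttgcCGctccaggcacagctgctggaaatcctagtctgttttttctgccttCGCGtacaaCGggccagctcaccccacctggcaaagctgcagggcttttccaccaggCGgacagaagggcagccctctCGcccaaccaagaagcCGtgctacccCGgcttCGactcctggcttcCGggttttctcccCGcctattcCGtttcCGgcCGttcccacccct

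The ARL6 stretch held 22 CG dinucleotides and the BBS10 stretch 15, at the same GC content of 62.8%. The CpG observed/expected ratio, which is the number of CG dinucleotides over that given by the C and G content, was 0.901 and 0.624 in these 250 bases. Neither stretch held any of the 6 elements. ARL6 also has a RefSeq start at its canonical TSS, and the peak covered 53 of the 250 bases before that start. The X-box-like sequence of ARL6 lies among those 250 bases, outside the peak.

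In IFT-A, peaks were found at IFT140 and TTC21B, both encoding subunits that act in retrograde transport. The IFT140 peak (chr16:1612237-1612630) was 394 bp wide and centred 361 bp upstream of the IFT140 TSS, and the nearest TSS was that of CRAMP1, the divergent gene on the other strand. TTC21B had 2 peaks, 1 of 407 bp around its TSSs (chr2:165953435-165953841, centred 107 bp downstream of the nearest) and 1 of 224 bp centred 274 bp upstream (chr2:165954014-165954237). It was the only one of the 20 genes with 2 PHF20 peaks. The remaining IFT-A subunits IFT43, IFT122, WDR19 and WDR35 had none, and the gap from their TSSs to the nearest PHF20 peak was 725225, 29493, 87547 and 49441 bp.

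In IFT-B, 3 of the 8 core (IFT-B1) subunits had a PHF20 peak (37.5%, 13.7% to 69.4%), as did 3 of the 6 peripheral (IFT-B2) subunits (50.0%, 18.8% to 81.2%). Within the core, IFT22, a small GTPase-like subunit, had a peak of 827 bp over its TSSs (chr7:101321519-101322345). IFT74, which binds tubulin cargo together with IFT81, had the widest peak of the IFT genes, 1089 bp (chr9:26946876-26947964). This peak lay 8992 bp upstream of the canonical IFT74 TSS, at the start of IFT74 transcripts that begin further upstream, in a window shared with PLAA. The core subunit IFT46 had a peak of 337 bp (chr11:118572388-118572724) that was likewise 6625 bp upstream of its canonical TSS, and the nearest TSS belonged to ARCN1, a coatomer gene. The core subunits IFT25 and IFT27, which link the trains to BBSome export, and IFT52, IFT81 and IFT88, had no peak.

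Among the peripheral subunits, IFT20, which also resides at the Golgi, had a peak of 734 bp (chr17:28334949-28335682) in a window shared with TNFAIP1. IFT57, a coiled-coil subunit, had a peak of 399 bp (chr3:108222012-108222410), centred in coding sequence 149 bp downstream of the nearest TSS. CLUAP1, another coiled-coil subunit, had a peak of 676 bp (chr16:3500764-3501439), centred 83 bp downstream of the nearest TSS and holding the canonical TSS. The peripheral subunits IFT80, IFT172 and TRAF3IP1 had no peak.

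In the BBS group, 4 of the 8 BBSome subunits had a PHF20 peak (50.0%, 21.5% to 78.5%), as did 2 of the 3 other genes. The BBS1 peak (chr11:66510403-66511204) was 802 bp wide and held the canonical TSS, and BBS1 is the subunit that binds the GTPase ARL6. BBS4, a subunit with tetratricopeptide repeats, had a peak of 513 bp (chr15:72685672-72686184) centred 251 bp upstream, in a window shared with HIGD2B. TTC8, also built of such repeats, had a peak of 308 bp (chr14:88824678-88824985), and BBIP1, the smallest subunit, had a peak of 249 bp (chr10:110918711-110918959) in a window shared with SHOC2. BBS2, BBS5, BBS7 and BBS9 had none, so the BBSome was split evenly between genes with and without a peak.

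Outside the BBSome itself, BBS10 had a peak of 744 bp (chr12:76348162-76348905) and ARL6 a peak of 575 bp (chr3:97763986-97764560), centred 118 bp and 248 bp upstream of the nearest TSS. BBS12, the other chaperonin-like gene, had none, with the nearest PHF20 peak 32095 bp away.

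In the transition zone, peaks were found at TCTN1, TMEM231, TMEM237, CC2D2A, B9D1 and B9D2. TMEM237, a membrane protein mutated in Joubert syndrome, had the widest peak of the 46 genes, 1550 bp (chr2:201642152-201643701), which is at the 99.2 percentile of all PHF20 peaks. TMEM231, a membrane protein of the MKS complex, had a peak of 917 bp (chr16:75555225-75556141), at the 77.0 percentile. B9D1, which with B9D2 and MKS1 forms the B9-domain part of that complex, had a peak of 674 bp (chr17:19361989-19362662), and B9D2 had a peak of 295 bp (chr19:41364331-41364625) centred 313 bp upstream, in a window shared with TMEM91. TCTN1, a tectonic protein of the gate, had a peak of 609 bp (chr12:110614072-110614680). The CC2D2A peak (chr4:15479187-15479650), 464 bp wide, lay 9536 bp downstream of the canonical TSS, at the start of transcripts that begin within the gene, and CC2D2A organizes the gate together with the tectonic proteins.

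The other 8 transition-zone genes had no peak. They were TCTN2 and TCTN3, the remaining tectonic genes, the membrane proteins TMEM67 and TMEM216, the B9-domain gene MKS1, the scaffold genes NPHP4 and RPGRIP1L, and CEP290, which tethers the membrane to the axoneme. CEP290 was the gene furthest from any PHF20 peak, with a gap of 1383532 bp. Members of 1 family differed here too, with TCTN1 called and TCTN2 and TCTN3 not, and B9D1 and B9D2 called and MKS1 not.

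The PHF20L1 peaks lay wholly inside the wider PHF20 peaks at both genes. At TMEM231 the PHF20L1 peak (chr16:75555459-75555720) was 262 bp wide, at the 30.6 percentile of all PHF20L1 peaks, covered 28.6% of the PHF20 peak and was centred 94 bp from its centre. It lay downstream of the TSS nearest to it by 115 bp and did not reach the window of the canonical TSS. At TMEM237 it (chr2:201642667-201643174) was 508 bp wide, at the 86.6 percentile, covered 32.8% of the PHF20 peak and was centred 6 bp from its centre.

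**Figure D2:**
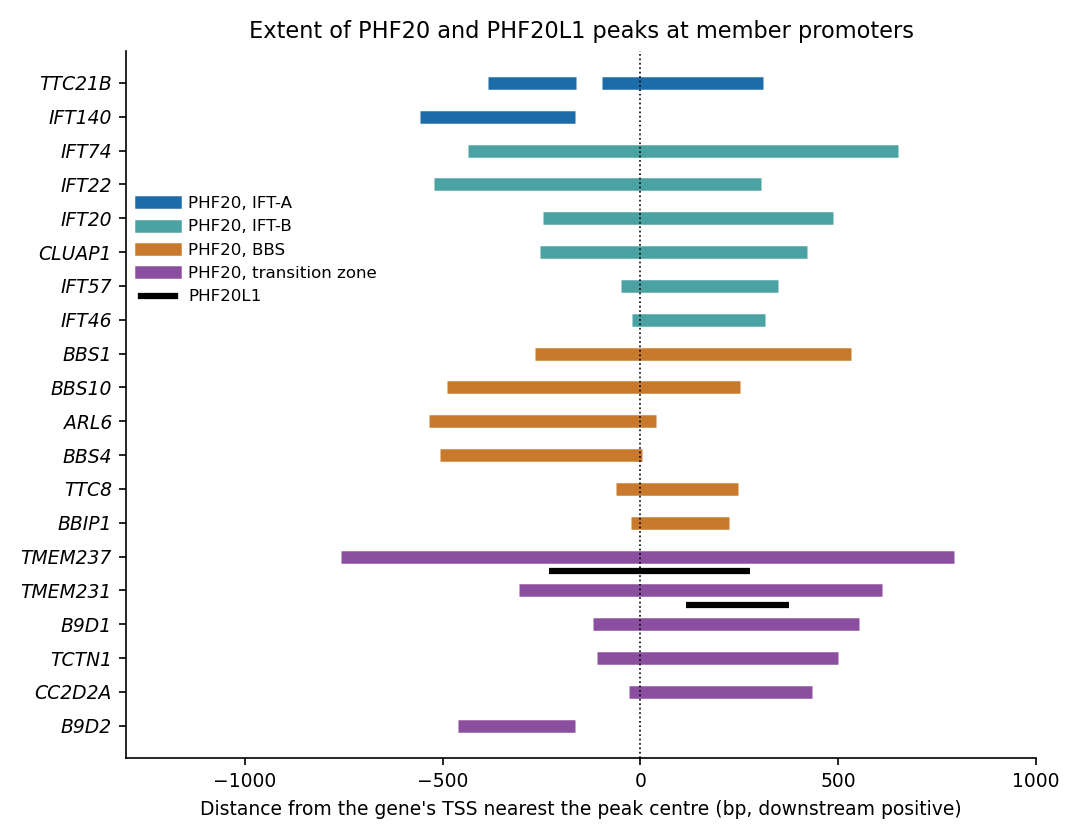
Extent of every peak at the 20 cilium genes with one, in bp from the annotated TSS of the gene that is nearest the peak centre (x axis, downstream positive), with genes ordered by group and PHF20 peak width. Coloured bars are PHF20 peaks and black bars PHF20L1 peaks. Most bars cross 0, IFT140 and B9D2 lie wholly upstream, and TTC21B has 2 bars.

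The PHF20 peaks were selected by overlap with promoter windows, so their closeness to annotated starts is partly set by that rule. The positions below describe these peaks only, with no value over all genes beside them. In 18 of the 20 genes the widest peak held an annotated TSS, and the distance from its centre to the nearest TSS had a median of 140 bp and a range of 18 bp at TMEM237 to 361 bp at IFT140. The centre was downstream of that TSS in 14 genes and upstream in 6, which were IFT140, IFT22, BBS4, BBS10, ARL6 and B9D2. The canonical TSS was inside the widest peak in 8 of the 20 genes. In IFT46, IFT74 and CC2D2A the peak missed the canonical window altogether.

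A peak in a shared window cannot be assigned to 1 gene. Of the 20 genes, 7 had a PHF20 peak that also met the window of another protein-coding gene: IFT140, IFT46, IFT74, IFT20, BBS4, BBIP1 and B9D2. In 3 more, TMEM231, TMEM237 and B9D1, the peak met only windows of noncoding genes besides, and in 10 it met no other gene's window. When each peak was given to the gene with the nearest TSS, IFT140 and IFT46 were lost, which left 1 of 6 IFT-A genes with a peak.

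The 26 cilium genes without a PHF20 peak were far from one. Their gap to the nearest PHF20 peak ranged from 14818 bp at IFT52 to 1383532 bp at CEP290, with a median of 74932 bp, and 0 of 26 lay within 5000 bp and 11 lay beyond 100000 bp. No gene thus stood just outside the window, and no cilium gene changed from absent to present when the window was widened to 2000 bp on either side. Few genes of any kind did, since the count over all protein-coding genes went from 4148 (20.7%) to 4236 (21.1%). The gaps of all genes without a peak are not given here for comparison. No PHF20 or PHF20L1 peak lay elsewhere in the bodies of the 46 genes.

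**Figure D3:**
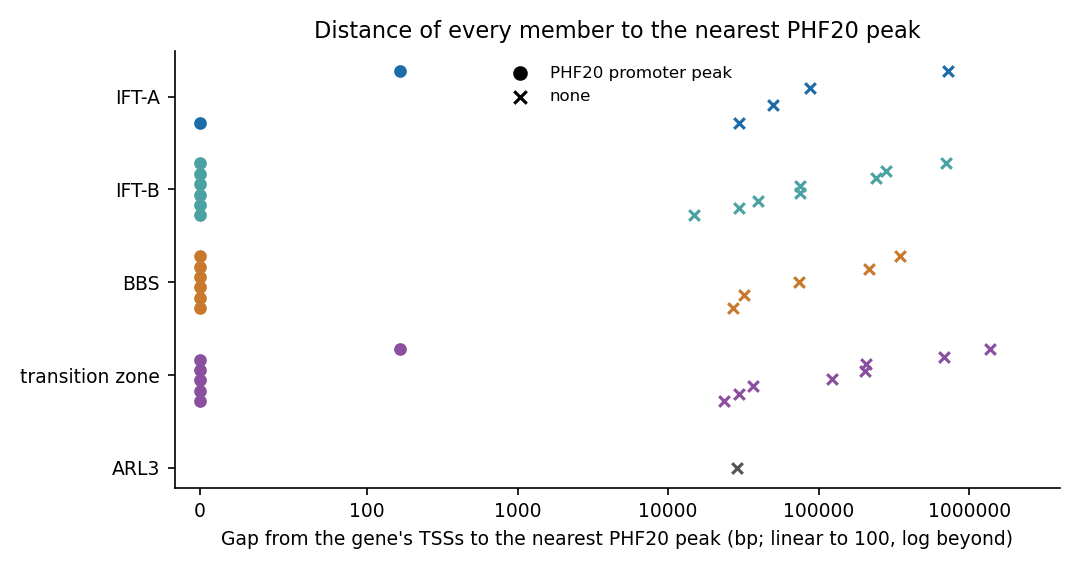
Gap in bp from the TSSs of each of the 46 genes to the nearest PHF20 peak (x axis, linear to 100 and logarithmic beyond), by group. Circles are the 20 genes with a promoter peak and crosses the 26 without. All circles lie at or below 166 bp and all crosses at or above 14818 bp.

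The peaks at cilium genes were of ordinary width. Peak width is described because the lists give no height. The widest PHF20 peak per gene had a median of 592 bp, with the middle 50% between 398 and 758 bp (n = 20), against 682 bp (448 to 962 bp) over all 4148 genes with a PHF20 peak. By group the median was 400 bp in IFT-A (n = 2), 705 bp in IFT-B, 544 bp in the BBS group and 642 bp in the transition zone (n = 6 in each of these 3). Within each of these 3 groups the widths ranged widely, from 337 to 1089 bp in IFT-B, 249 to 802 bp in the BBS group and 295 to 1550 bp in the transition zone. The ranges overlapped.

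**Figure D4:**
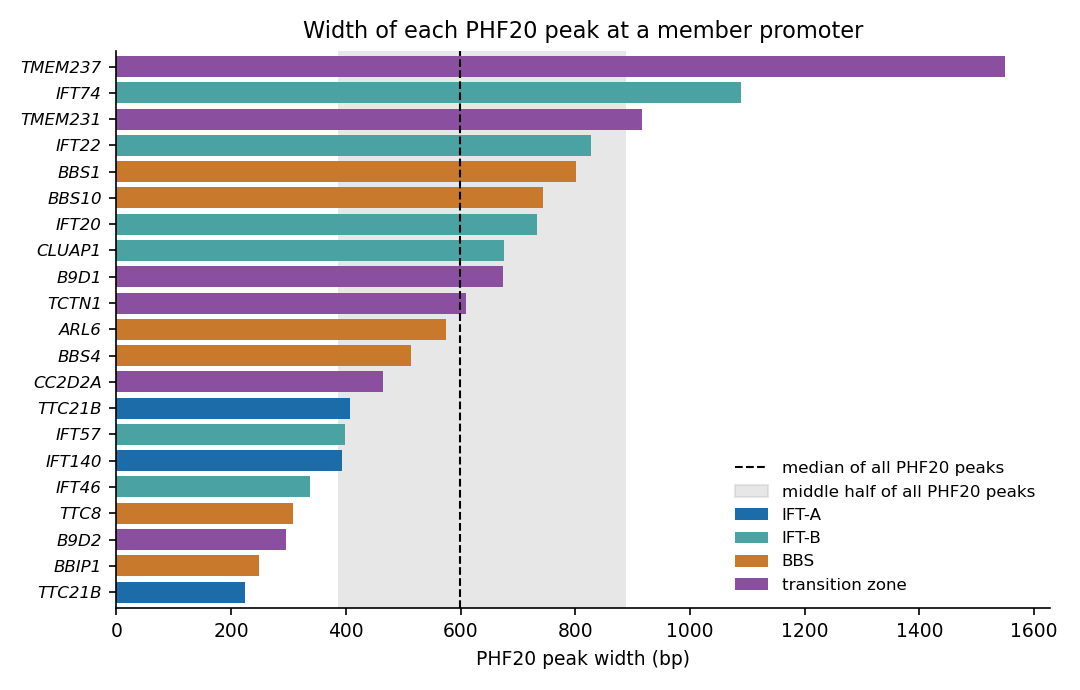
Width in bp (x axis) of each of the 21 PHF20 peaks at cilium promoters, coloured by group. The dashed line and grey band mark the median, 599 bp, and the middle 50% of all 4147 PHF20 peaks, 386 to 889 bp. TMEM237, IFT74 and TMEM231 lie above the band.

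The CpG content of cilium promoters with and without a PHF20 peak overlapped widely. Their median CpG observed/expected ratio in the canonical window was 0.689, against 0.67 over all protein-coding genes. Across all genes the median was higher with a PHF20 peak (0.743) than without (0.629), whereas in the cilium genes it was 0.676 with and 0.721 without. CC2D2A had the lowest ratio of the 46 genes, 0.249, in its canonical window, which the peak did not reach, and IFT140 had the highest, 0.983. Since promoters with few CG dinucleotides seldom had a PHF20 peak (2.18% of all genes with a ratio below 0.4), shares were also compared within classes of this ratio. Between 0.6 and 0.8, 11 of 27 cilium genes had a peak (40.7%, 24.5% to 59.3%), against 29.4% of all genes, and at 0.8 and above 5 of 12 did (41.7%, 19.3% to 68.0%), against 30.3%. In these 2 classes, which held most of the cilium genes, the difference from all genes was smaller than in the whole set and the intervals included the share of all genes. Between 0.4 and 0.6, 3 of 6 cilium genes had a peak (50.0%, 18.8% to 81.2%), against 15.3% of all genes, which lay below that interval. This count of 3 includes BBS1 and BBS10, and the ratio of BBS10 rounds to 0.6, the edge of the class. It also includes IFT46, whose peak missed the window in which the ratio was measured. The same held for IFT74 in the class between 0.6 and 0.8. Below 0.4 the only cilium gene was CC2D2A, which had a peak outside the window in which the ratio was measured.

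**Figure D5:**
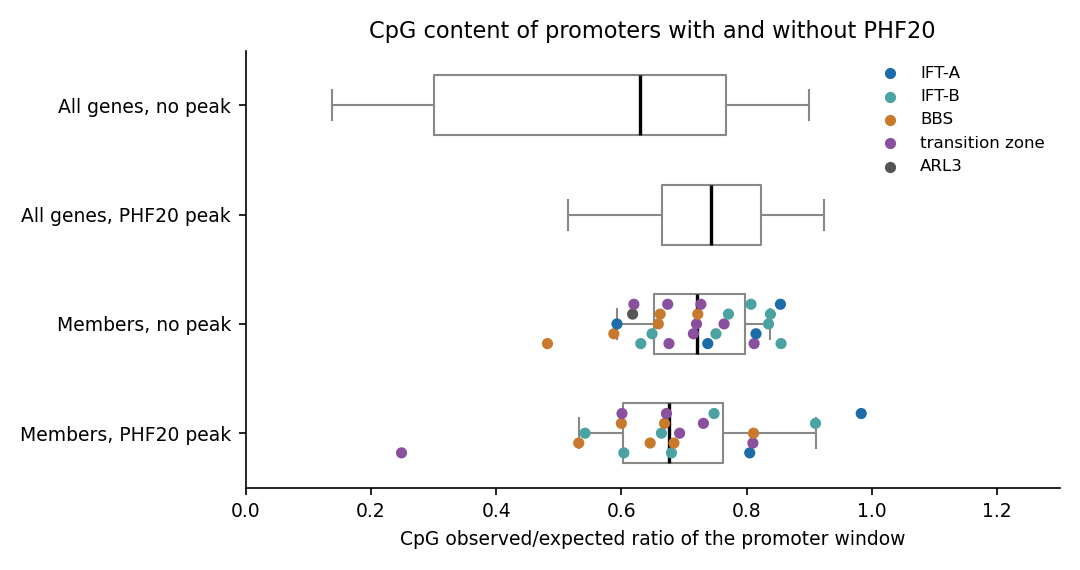
CpG observed/expected ratio of the promoter window (x axis) of all protein-coding genes and of the cilium genes, without and with a PHF20 peak. Boxes span the middle 50%, thick lines are medians and whiskers reach from the 5th to the 95th percentile, with cilium genes also shown as points coloured by group. The median of all genes is 0.629 without and 0.743 with a peak, and that of cilium genes 0.721 and 0.676.

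The number of annotated starts also differed, and a gene with more of them has more windows in which a peak can fall. The cilium genes had a median of 11 TSSs, against 5 over all protein-coding genes, and the share of all genes with a PHF20 peak went from 14.2% for genes with 1 to 5 TSSs to 33.7% for those with 21 or more. With 1 to 5 TSSs, 2 of 8 cilium genes had a peak (interval 7.15% to 59.1%), against 14.2% of all genes, and with 6 to 10 TSSs 5 of 12 did (41.7%, 19.3% to 68.0%), against 25.1%. With 11 to 20 TSSs, 9 of 16 cilium genes had a peak (56.2%, 33.2% to 76.9%), against 29.6%, and with 21 or more 4 of 10 did (40.0%, 16.8% to 68.7%), against 33.7%. The interval included the share of all genes in each class but that of 11 to 20 TSSs. Among genes with at least 6 TSSs and a CpG ratio of at least 0.6, the counts were 15 of 33 cilium genes (45.5%, 29.8% to 62.0%) and 2348 of 7127 of all genes (32.9%, 31.9% to 34.0%). The part of CpG content and of the number of TSSs in the higher share of the cilium genes was not tested further.

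Genes that start head to head with another coding gene, with the starts within 1000 bp, had a PHF20 peak more often across the genome, 1083 of 2532 (42.8%, 40.9% to 44.7%) against 17.5% of the other genes. A partner was sought only upstream of the canonical TSS of each gene, while a peak could lie in the window of any TSS. In the cilium genes the counts were 4 of 11 with such a partner (36.4%, 15.2% to 64.6%) and 16 of 35 without (45.7%, 30.5% to 61.8%). IFT46, IFT74 and B9D2, whose peaks also met the window of another coding gene, were counted as without a partner. The 4 with a partner and a peak were IFT140 with CRAMP1, IFT20 with TNFAIP1, BBS4 with HIGD2B and BBIP1 with SHOC2. The 7 with a partner and no peak were IFT122, IFT25, IFT80, NPHP4, RPGRIP1L, CEP290 and ARL3.

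For context, other cilium genes and the SNARE and VPS genes of vesicle fusion and endosomal sorting, which are the most similar transport genes, were counted in the same way. PHF20 peaks were at 12 of 27 IFT motor genes and remaining subunits of the same complexes (44.4%, 27.6% to 62.7%), at 5 of 25 basal body and membrane traffic genes (20.0%, 8.86% to 39.1%), at 5 of 26 genes of the motile axoneme (19.2%, 8.51% to 37.9%) and at 3 of 9 ciliary transcription factor genes (33.3%, 12.1% to 64.6%). They were at 38 of 77 SNARE and VPS genes (49.4%, 38.5% to 60.3%). The share in the 46 cilium genes was thus close to that of the combined list of motor genes and remaining subunits, and its interval overlapped those of all 5 lists. Divided after the values were seen, the first list gave 1 of 11 kinesin and dynein genes (9.09%, 1.62% to 37.7%), DYNC2I2, and 11 of 16 remaining subunit genes (68.8%, 44.4% to 85.8%).

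PHF20L1 peaks, found at 3.82% of all protein-coding genes, were at 1 of the 27 motor genes and remaining subunits (3.7%, 0.657% to 18.3%), at 1 of the 25 basal body and membrane traffic genes (4.0%, 0.71% to 19.5%) and at 2 of the 26 genes of the motile axoneme (7.69%, 2.14% to 24.1%). None were called at the 9 ciliary transcription factor genes, where a count of 0 allows a share of up to 33.3%. The genes were TMEM17, a transition-zone membrane protein (474 bp), PDE6D, the carrier of lipid-modified cargo that ARL3 unloads (284 bp), and CCDC103 and CFAP298, which serve dynein arms of motile cilia (460 and 410 bp). Of the SNARE and VPS genes, 8 of 77 had a PHF20L1 peak (10.4%, 5.36% to 19.2%), a share whose interval lay above that of all genes: STX16, STX18, VPS13B, VPS33A, VPS35L, VPS50, VPS51 and VTI1A. The PHF20 peaks of the smaller lists, named after their values were seen, were those of CEP89, INPP5E, OFD1, PDE6D and TULP3 at the basal body and in membrane traffic, of CCDC103, CCDC40, CFAP298, DNAAF2 and DNAAF5 in the motile axoneme and of MCIDAS, RFX2 and RFX7 among transcription factors.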

How the data were processed

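HA ChIP-Seq peaks of PHF20 and PHF20L1 in U2OS cells were analysed as the authors deposited them. The deposited values are genomic positions (start and end), in 1 final list per protein, and carry neither scores nor heights nor read counts. Reads had been mapped to hg38 with Bowtie 1.1.2, restricted to unique positions and deduplicated. Peaks had been called with MACS2 2.2.7.1 against input (extension 200 bp) and cleared of blacklisted regions. To enter a final list, a peak of the strongest replicate (p up to 0.01) had to overlap peaks of the remaining replicates (p up to 0.05). A PHF20 replicate that failed peak calling had been dropped.

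Positions were converted to count from 1 and compared with GENCODE release 44, later than the release used by the authors, at an overlap of at least 1 bp. Shares were given Wilson 95% intervals, and a count of 0 the share that 3 counts would give. Sequences came from hg38 and RefSeq. No test over the genes was made. Every cilium gene is named. Of other genes, those sharing a promoter with a named cilium gene and those with a PHF20L1 peak are named, and others where the text says so. All genes of the 4 other cilium lists matched the annotation, 3 by an older symbol, and the SNARE and VPS genes were taken from it by symbol. VPS72, a chromatin gene, was left out of the VPS genes after the values were seen. The members, the lists and the elements, of which ACTTCCGG and CACGTGAC had been found in these peaks, were chosen with earlier results of these data known. Other TSS sets, windows, peak widths and assignments were tried as alternatives. The promoter window rule and the nearest-gene rule were tested on planted peaks. Python 3.11.15, pandas 2.3.3, scipy 1.17.1, pysam 0.24.0 and matplotlib 3.10.9 were used.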

Additional observations from a re-analysis of the deposited data

How the results depend on the processing

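Of 70 alternative values, 61 stayed within 1.5 times the reported value and 9 moved further. The genes bound by PHF20L1, and those bound by both proteins, fell from 2 to 1 with the outermost TSS, with the MANE Select or canonical TSS and with peaks of at least 300 bp, each time by the loss of TMEM231. The IFT-A genes bound by PHF20 fell from 2 to 1 when a peak was given to the nearest gene, of any type or protein-coding. With the canonical TSS the IFT-B genes fell from 6 to 4 of 14 (28.6%, against 19.1% of all genes). With the outermost TSS the transition-zone genes fell from 6 to 4 of 14 (28.6%, against 17.8% of all genes). Both of these falls stood at the limit of 1.5 times and were counted as within it. The promoters with an X-box-like sequence fell from 7 to 1 with a spacer of exactly 2 bases. For PHF20, 12 of the 46 genes were bound under all 10 settings. Those lost were B9D1, CC2D2A and TTC8 with the outermost TSS, CC2D2A, IFT46 and IFT74 with the canonical TSS, B9D2 and BBIP1 with peaks of at least 300 bp, and IFT140 and IFT46 with the nearest gene. No gene was gained. Across the settings the share of cilium genes with a PHF20 peak ranged from 37.0% to 43.5%. That of all protein-coding genes ranged from 15.3%, with the nearest gene of any type, to 21.1%, with the window of 2000 bp. The share of all genes bound under every setting is not given here, so the 12 cannot be compared with it. No paired analysis was possible because replicates were merged into 1 list per protein without values of their own, so none was left out. Differences in depth or quality between the libraries of PHF20 and PHF20L1 cannot be told apart from differences in binding. With 6 to 14 genes a group, differences between the 4 groups were not detectable at the shares found. The stricter width stands in for a score, which the lists lack.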
